A study of Mus musculus with 6 samples.

Results

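The 10 genes described here encode the machinery of MHC class I antigen presentation: the heavy chains H2-K1, H2-D1 and H2-T23, the light chain B2m, the peptide transporter subunits Tap1 and Tap2, the loading factor Tapbp, the immunoproteasome subunits Psmb8 and Psmb9, and the transactivator Nlrc5. They were chosen by name, by matching symbols to the Ensembl identifiers of the count tables, and all 10 were found among the 53801 genes counted. RNA was sequenced from MC3T3-E1, a line of mouse pre-osteoblasts derived from calvaria of C57BL/6, the strain of the reference genome. Both groups carried a lentiviral vector expressing ZsGreen1 and a puromycin resistance gene, and both were selected with 5 μg/mL puromycin for 7 days. The 3 scramble libraries came from cells with a scrambled non-silencing RNA, and the 3 Hdac4-knockdown libraries from cells with an shRNA against Hdac4, which the study names Hdac4-shRNA3. The RNA samples of a group were prepared independently, but the labels leave unsaid whether they came from separate infections, so that p-values measure the spread between these samples. A single hairpin was sequenced, and differences between the groups cannot be told apart from differences between the 2 stable cell populations.

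MHC class I molecules display peptides from inside the cell to CD8+ T cells and natural killer cells. Proteasomes cut proteins into peptides, the TAP transporter carries these into the endoplasmic reticulum, and tapasin holds the heavy chain and β2-microglobulin there until a peptide binds. Interferons raise the transcription of most of these genes and exchange the catalytic subunits of the proteasome for immunoproteasome subunits, and NLRC5 acts with RFX, CREB and NF-Y factors on class I promoters. Non-immune cells such as osteoblasts carry class I molecules at a basal level.

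Reads counted on genes numbered from 29096544 to 31651826 per library, and 14531 genes had enough counts to be tested. Levels are CPM, the usual per-megaread scale of counts, after TMM correction of library size. A gene was called where the quasi-likelihood test of edgeR gave an adjusted p under 0.05 and the log2 fold change differed from 0 by more than 0.05, the thresholds the study used. In these bulk libraries, fewer cells expressing a gene and less RNA of it per cell cannot be told apart. Hdac4 itself was at 40.3 ± 0.412 CPM (SD, n = 3) in scramble and 29.6 ± 0.981 CPM (SD, n = 3) in Hdac4-knockdown libraries, or 73.6% of the scramble level. Of the 10 presentation genes, 4 were called higher in Hdac4-knockdown libraries (H2-D1, Nlrc5, Tap1 and Tapbp), 4 were called lower (Psmb8, H2-T23, Psmb9 and H2-K1), and B2m and Tap2 were not called. Over all genes tested, 75.1% were called, 38.0% higher and 37.1% lower, so the share of presentation genes called was close to that of the transcriptome. The same shares are the background for the counts of every list below. Their median log2 fold change was -0.07 (-0.04 without Hdac4-knockdown replicate 3), against 0.01 over all genes. For 9 of the 10, the libraries of the groups did not overlap, as for 76.8% of all genes tested. The list moved in both directions, and the genes are therefore described by role.

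**Figure D1:**
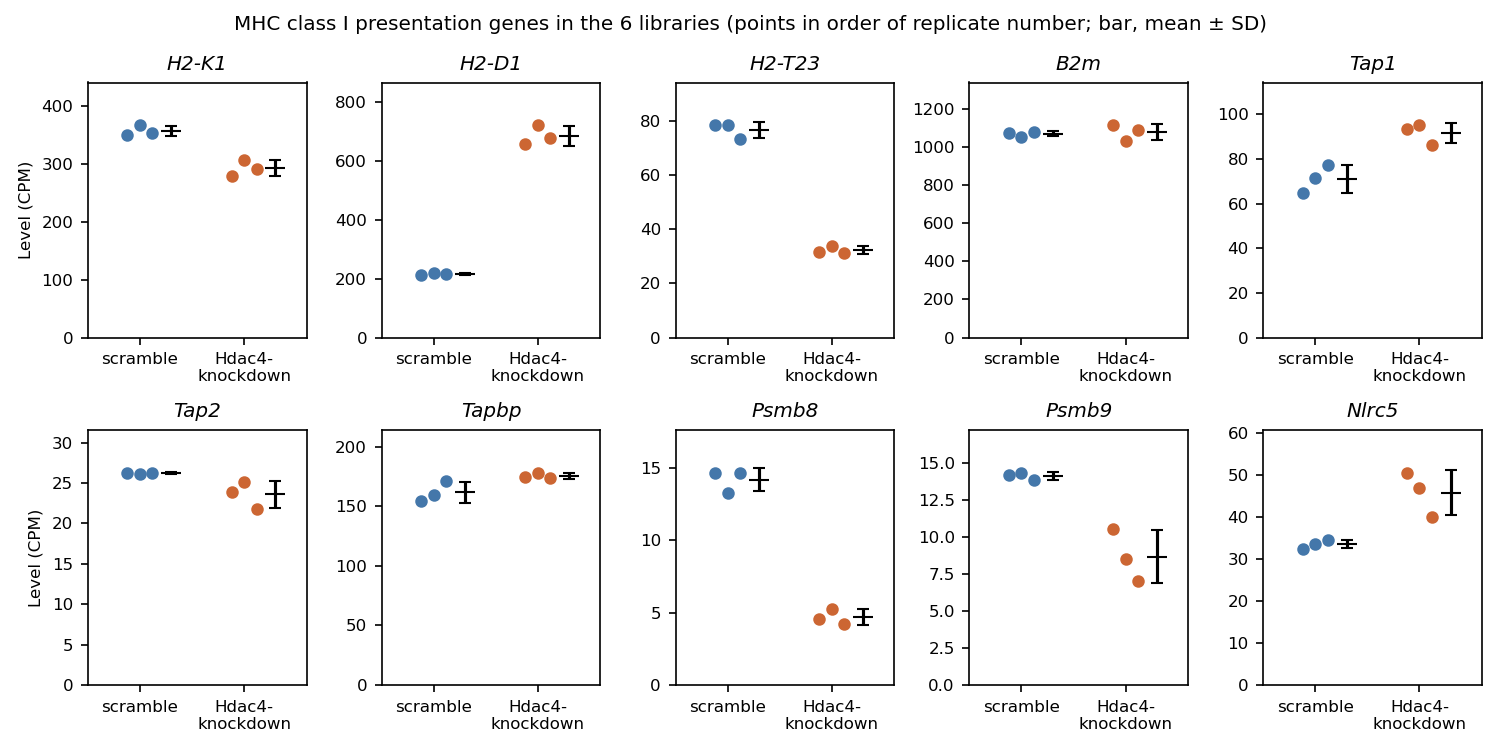
Levels of the 10 presentation genes in CPM (vertical axes, each starting at 0) in the 3 scramble (blue) and 3 Hdac4-knockdown (orange) libraries, with mean ± SD beside the points. H2-D1 rises to 686 CPM from 216 CPM, Psmb8 and H2-T23 fall, and the B2m points of the groups overlap.

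H2-K1 and H2-D1 encode the classical heavy chains of C57BL/6 cells, which present peptides to CD8+ T cells, and they moved in opposite directions. Scramble libraries held 6487, 6597 and 6143 H2-D1 counts, and Hdac4-knockdown libraries held 20358, 23284 and 20380. All 3 Hdac4-knockdown libraries were far above all scramble libraries. After normalization H2-D1 was at 216 ± 4.08 CPM (SD, n = 3) in scramble and 686 ± 33.2 CPM (SD, n = 3) in Hdac4-knockdown libraries, 3.17 times as high, with a log2 fold change of 1.67 (SE 0.0422, edgeR adjusted p = 9.31e-18). It was the only presentation gene called higher with a log2 fold change above 1, a size that 16.5% of all genes tested reached in that direction. H2-K1 was counted 10714, 11013 and 10103 times in scramble and 8657, 9909 and 8799 times in Hdac4-knockdown libraries. The Hdac4-knockdown libraries were all below the scramble libraries, by a small margin. Normalized, this came to 358 ± 9.10 CPM (SD, n = 3) in scramble and 293 ± 13.9 CPM (SD, n = 3) in Hdac4-knockdown libraries, or 82.0% of scramble, a log2 fold change of -0.29 (SE 0.042, edgeR adjusted p = 4.68e-06).

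The balance between these heavy chains was read within each library, where it needs no normalization. For each H2-D1 count, scramble libraries held 1.65, 1.67 and 1.64 H2-K1 counts, and Hdac4-knockdown libraries held 0.425, 0.426 and 0.432. H2-K1 exceeded H2-D1 in every scramble library and was below it in every Hdac4-knockdown library. The log2 ratio fell by 1.95 (SE 0.0096), with an SD between replicates of 0.011 in scramble and 0.012 in Hdac4-knockdown libraries (exact permutation test, two-sided, p = 0.1, which no comparison of 3 with 3 libraries can go below). Per length of annotated exon, the summed level of the 3 heavy chains was 232 ± 5.04 RPKM (SD, n = 3) in scramble and 377 ± 18.0 RPKM (SD, n = 3) in Hdac4-knockdown libraries. The H2-D1 part of that sum was 36.1% ± 0.259 (SD, n = 3) in scramble and 70.6% ± 0.131 (SD, n = 3) in Hdac4-knockdown libraries. RPKM was computed over the union of all annotated exons, which for H2-K1 spans 2938 bases from 16 transcripts and for H2-D1 2579 bases from 4 transcripts, so levels per length depend on that choice.

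Class I genes resemble each other, and reads that align to several places were not counted. H2-K1 (ENSMUSG00000061232; chromosome 17, 33996017 to 34000347, GRCm38) and H2-D1 (ENSMUSG00000073411; chromosome 17, 35262730 to 35267499) share no exon bases with another annotated gene. Of all windows of 100 bases in their transcripts, 0.957% for H2-K1 and 3.59% for H2-D1 also occur in transcripts of other genes, H2-Q7 among them in both cases. H2-T23 shares 3.15% of such windows, mostly with Gm7030, H2-T22 and H2-Q1. Between 4.61% and 4.77% of reads aligned to several places in scramble libraries and between 3.88% and 4.15% in Hdac4-knockdown libraries, a share that is not assigned to genes.

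The sequences before the RefSeq starts of the heavy chain and light chain genes are shown as a description. Those of H2-K1 and H2-D1 are alike over part of their length, and the part of these sequences in the results was not tested. The 200 bases before each start (GRCm38.p6) are printed 5′ to 3′ on the strand of the gene. Capitals mark matches to an NF-kB motif (GGGNNTTCC) in H2-K1 and H2-D1 and to an interferon-stimulated response element (ISRE, GAAA and GAAA with any 2 bases between) in H2-T23 and B2m, searched on both strands.
H2-K1 (chr17:34000334-34000533, minus strand): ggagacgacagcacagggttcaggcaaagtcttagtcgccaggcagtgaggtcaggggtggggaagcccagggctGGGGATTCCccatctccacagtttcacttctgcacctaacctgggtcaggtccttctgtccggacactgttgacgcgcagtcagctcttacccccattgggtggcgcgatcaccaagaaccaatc
H2-D1 (chr17:35262894-35263093, plus strand): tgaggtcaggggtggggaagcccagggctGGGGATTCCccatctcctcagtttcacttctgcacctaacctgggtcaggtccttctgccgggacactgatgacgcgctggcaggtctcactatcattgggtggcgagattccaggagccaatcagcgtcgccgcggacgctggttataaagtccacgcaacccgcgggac
H2-T23 (chr17:36032702-36032901, minus strand): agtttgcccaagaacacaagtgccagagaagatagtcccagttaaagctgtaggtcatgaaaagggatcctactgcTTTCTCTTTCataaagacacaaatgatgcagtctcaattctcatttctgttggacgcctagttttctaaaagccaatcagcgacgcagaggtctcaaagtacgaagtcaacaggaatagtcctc
B2m (chr2:122147487-122147686, plus strand): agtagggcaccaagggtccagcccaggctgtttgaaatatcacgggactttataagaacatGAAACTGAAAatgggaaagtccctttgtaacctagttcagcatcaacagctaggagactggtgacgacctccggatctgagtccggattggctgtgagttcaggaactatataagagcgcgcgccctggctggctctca
RefSeq gives 2 starts for H2-K1, and the one further into the gene is used here. In the GENCODE annotation H2-D1 begins at 35262730, so its printed bases lie within the gene there. The printed bases of H2-K1 and H2-T23 lie partly within theirs. In a local alignment of the 250 bases before each start, H2-K1 and H2-D1 were identical at 172 of 192 aligned columns (89.6%). The aligned part ran from 192 to 1 bases before the start of H2-K1 and from 238 to 48 bases before that of H2-D1. The bases nearest the H2-D1 start thus lay outside it. Both carried the same NF-kB match, 125 bases before the start of H2-K1 and 171 bases before that of H2-D1, and both carried CCAAT boxes (CCAAT) nearer to the start. The ISRE match lay 124 bases before the start of H2-T23, on the opposite strand, and 139 bases before the start of B2m. The marked matches did not overlap a match of another motif searched. Windows from 250 bases before to 50 after the start were found for 8 of the 10 genes, those other than Tap2 and Nlrc5. Among 32851 such windows of the genome, 5.82% held the NF-kB motif, 3.44% the ISRE, 37.4% a CCAAT box, 8.3% the GAS motif (TTCNNNGAA) and 1.79% the CRE motif (TGACGTCA). A CCAAT box was found for 7 of the 8 genes, the GAS motif for Psmb8 alone, and the CRE motif for none. For Tap1 and Psmb9 it was the same box, and the H2-K1 and H2-D1 boxes lay in their aligned part. The 7 genes thus do not stand for 7 separate boxes. A match of letters is a description and does not show that a factor binds. Only the exact letters given were searched, so a gene without a match may still hold a variant of the element.

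H2-T23 encodes Qa-1, a nonclassical heavy chain that presents leader peptides of other class I chains to receptors of natural killer cells. It was counted 2394, 2350 and 2089 times in scramble and 980, 1094 and 945 times in Hdac4-knockdown libraries. The groups were wide apart, with every Hdac4-knockdown library below every scramble library. The level fell from 76.7 ± 2.97 CPM (SD, n = 3) to 32.3 ± 1.40 CPM (SD, n = 3), or 42.2% of scramble, a log2 fold change of -1.25 (SE 0.0543, edgeR adjusted p = 5.32e-14).

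B2m encodes β2-microglobulin, the light chain that every class I heavy chain needs to reach the cell surface. It was by far the most abundant of the 10 per length, at 1243 ± 15.5 RPKM (SD, n = 3) in scramble and 1255 ± 49.6 RPKM (SD, n = 3) in Hdac4-knockdown libraries. B2m was counted 32816, 31538 and 30748 times in scramble and 34521, 33275 and 32837 times in Hdac4-knockdown libraries, where its level was 1116, 1033 and 1091 CPM against 1074, 1054 and 1079 CPM in scramble. The groups overlapped, and the log2 fold change was 0.01 (95% interval -0.059 to 0.088, edgeR adjusted p = 0.734). With upper quartile normalization, B2m was called higher, with a log2 fold change of 0.10. There were 0.198, 0.209 and 0.200 H2-D1 counts for each B2m count in scramble and 0.590, 0.700 and 0.621 in Hdac4-knockdown libraries, whereas for H2-T23 the ratio fell from 0.0718 ± 0.0034 (SD, n = 3) to 0.0300 ± 0.00249 (SD, n = 3).

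**Figure D2:**
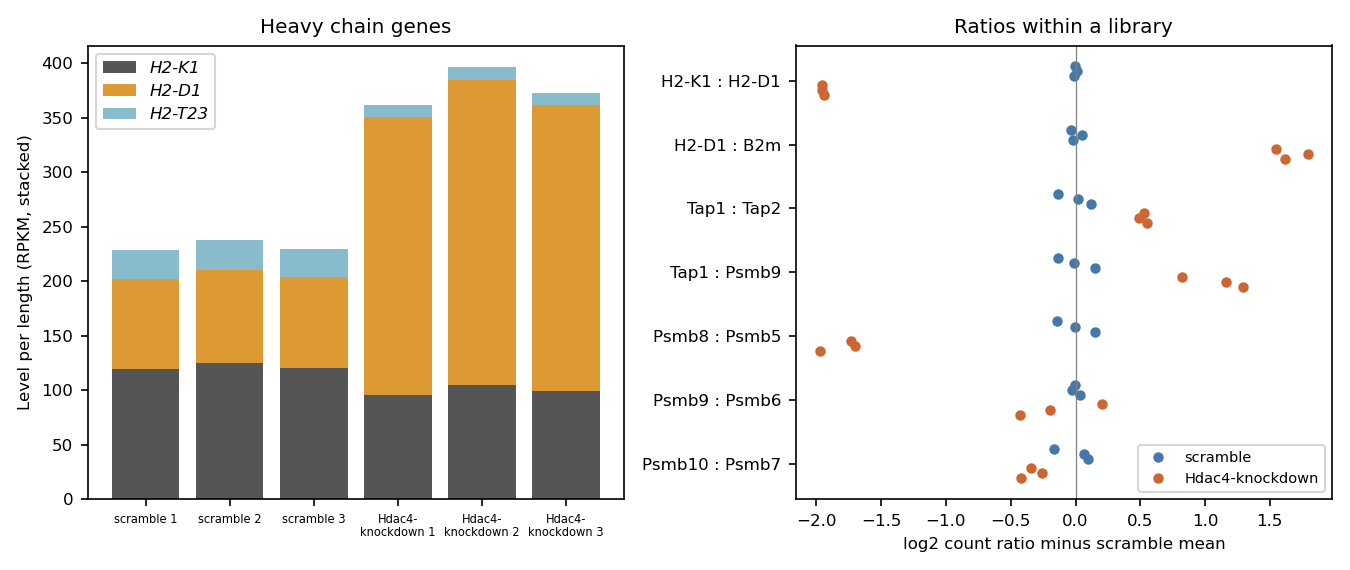
Left, stacked levels per length (RPKM, axis from 0) of H2-K1, H2-D1 and H2-T23 in each library. Right, the log2 ratio of counts for 7 gene pairs (points are libraries, blue scramble, orange Hdac4-knockdown) with the scramble mean of each pair set to 0. The H2-D1 part of the stack grows from 36.1% to 70.6%, and the groups overlap only for Psmb9 : Psmb6.

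Tap1 and Tap2 together form the peptide transporter in the endoplasmic reticulum membrane, and their RNAs did not move together. Tap1 was counted 1981, 2139 and 2201 times in scramble and 2887, 3069 and 2601 times in Hdac4-knockdown libraries. Each Hdac4-knockdown library was above each scramble library, and the scramble libraries spread from 64.8 to 77.2 CPM. The Tap1 level rose from 71.2 ± 6.20 CPM (SD, n = 3) to 91.6 ± 4.64 CPM (SD, n = 3), a log2 fold change of 0.37 (SE 0.0584, edgeR adjusted p = 1.33e-05). Tap2 was counted 804, 782 and 750 times in scramble and 740, 809 and 657 times in Hdac4-knockdown libraries. Normalized levels of Tap2 averaged 26.3 ± 0.107 CPM (SD, n = 3) in scramble and 23.6 ± 1.66 CPM (SD, n = 3) in Hdac4-knockdown libraries, a log2 fold change of -0.15 (SE 0.0679, edgeR adjusted p = 0.0502), just outside the threshold although the libraries of the groups did not overlap. The count ratio of Tap1 to Tap2, a ratio chosen after seeing the data, was 2.71 ± 0.236 (SD, n = 3) in scramble and 3.88 ± 0.0839 (SD, n = 3) in Hdac4-knockdown libraries. The groups did not overlap (two-sided exact permutation test, p = 0.1). Of the 3781 exon bases of Tap2, 698 are also annotated in the noncoding genes Gm15821 and Gm20496 on the other strand, and its unstranded counts are uncertain to that extent.

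Tapbp encodes tapasin, which bridges the transporter and empty class I molecules. It was counted 4719, 4776 and 4892 times in scramble and 5415, 5751 and 5225 times in Hdac4-knockdown libraries. Tapbp levels averaged 162 ± 8.83 CPM (SD, n = 3) in scramble and 176 ± 2.51 CPM (SD, n = 3) in Hdac4-knockdown libraries, and the highest scramble library, at 171.6 CPM, came close to the lowest Hdac4-knockdown library, at 173.6 CPM. The log2 fold change of 0.12 (SE 0.0446, edgeR adjusted p = 0.0222) lost its call without scramble replicate 1 (0.076, adjusted p = 0.188) and without scramble replicate 2 (0.099, adjusted p = 0.102). Tapbp shares 1053 of its 3628 exon bases with Zbtb22 and Gm19412, the largest such share among the 10 genes.

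Psmb8 and Psmb9 encode the immunoproteasome subunits LMP7 and LMP2, which replace the constitutive subunits encoded by Psmb5 and Psmb6, and both fell. Psmb8 was counted 449, 397 and 418 times in scramble and 142, 170 and 126 times in Hdac4-knockdown libraries. No Hdac4-knockdown library came near a scramble library. Psmb8 fell from 14.2 ± 0.818 CPM (SD, n = 3) to 4.68 ± 0.551 CPM (SD, n = 3), or 33.0% of scramble, a log2 fold change of -1.60 (SE 0.108, edgeR adjusted p = 6.53e-11), the largest decrease of the 10 genes. Psmb9 was counted 434, 430 and 395 times in scramble and 326, 274 and 211 times in Hdac4-knockdown libraries. The groups did not overlap, but the Hdac4-knockdown libraries spread from 7.01 to 10.5 CPM. Its level fell from 14.1 ± 0.259 CPM (SD, n = 3) to 8.68 ± 1.77 CPM (SD, n = 3), a log2 fold change of -0.70 (SE 0.114, edgeR adjusted p = 1.62e-05). Psmb8 and H2-T23 were the 2 presentation genes called lower with a log2 fold change beyond -1, a size that 10.6% of all genes tested reached in that direction. Psmb8 shares 498 of its 3381 exon bases with the antisense gene Gm20496.

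The third immunoproteasome subunit, Psmb10, and the PA28 activator subunits Psme1 and Psme2 were examined as a list of 3, and all 3 were called lower, with log2 fold changes of -0.63 (SE 0.0593, edgeR adjusted p = 1.12e-08), -0.90 (SE 0.0539, edgeR adjusted p = 9.29e-12) and -0.66 (SE 0.0474, edgeR adjusted p = 1.51e-10). Of 11 other subunit genes of the 20S core, 9 were called lower, Psmb3 was called higher (0.26), and Psmb4 was not called. Over all genes tested, 37.1% were called lower. The median of the 11 subunit genes was -0.27, with the lowest value for Psma7 (-0.73). Among the constitutive counterparts, Psmb6 (-0.58) and Psmb7 (-0.29) were called lower and Psmb5 was called higher (0.19, adjusted p = 0.0289), a call that was lost without any of 4 single libraries (scramble replicates 2 and 3, Hdac4-knockdown replicates 2 and 3) and with DESeq2. Within a library, there were 0.391, 0.431 and 0.482 Psmb8 counts for each Psmb5 count in scramble and 0.131, 0.133 and 0.110 in Hdac4-knockdown libraries. The log2 ratio of Psmb8 to Psmb5 fell by 1.80 (SE 0.121), and that of Psmb10 to Psmb7 fell by 0.34 (SE 0.0945), without overlap of the groups. The count ratio of Psmb9 to Psmb6 was 0.0793 ± 0.00184 (SD, n = 3) in scramble and 0.0731 ± 0.0167 (SD, n = 3) in Hdac4-knockdown libraries, which overlapped (two-sided exact permutation test, p = 0.6). Over the 9 ratios computed, 8 had no overlap between the groups, and each of these had a permutation p of 0.1 and a Benjamini-Hochberg adjusted p of 0.1125 (exact tests).

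Tap1 and Psmb9 lie head to head on chromosome 17, and the stretch between their RefSeq starts is shown. Tap1 was called higher and Psmb9 lower, and the part of this sequence in that was not tested. The 225 bases between the RefSeq starts (GRCm38.p6, printed 5′ to 3′ on the plus strand, towards Tap1) hold a single CCAAT box, in capitals, 8 bases before the start of Psmb9.
Tap1-Psmb9 interval (chr17:34187331-34187555, plus strand): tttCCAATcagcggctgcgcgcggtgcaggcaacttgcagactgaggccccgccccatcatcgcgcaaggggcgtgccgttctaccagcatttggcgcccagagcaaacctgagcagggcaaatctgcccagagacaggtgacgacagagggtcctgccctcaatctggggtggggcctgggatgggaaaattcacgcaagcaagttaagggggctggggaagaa
Neither the ISRE, GAS nor NF-kB letters were found in the window of either gene. In the GENCODE annotation Psmb9 spans 34181987 to 34187764, so the whole printed stretch lies within that gene. There the genes also share 212 exon bases, and reads on these are ambiguous between them. There were 5.04 ± 0.507 (SD, n = 3) Tap1 counts for each Psmb9 count in scramble and 10.8 ± 1.77 (SD, n = 3) in Hdac4-knockdown libraries, a ratio also chosen after seeing the data (two-sided exact permutation test, p = 0.1).

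Nlrc5 encodes the transactivator of class I genes and is itself induced by interferon. It was counted 992, 1007 and 985 times in scramble and 1564, 1507 and 1204 times in Hdac4-knockdown libraries. All Hdac4-knockdown libraries were higher, and replicate 3 was the lowest of them. The Nlrc5 level rose from 33.6 ± 1.05 CPM (SD, n = 3) to 45.8 ± 5.34 CPM (SD, n = 3), a log2 fold change of 0.45 (SE 0.0716, edgeR adjusted p = 1.33e-05). Of 20 genes for other regulators of class I transcription, 18 were tested, 8 were called higher and 9 lower, with a median of -0.12. That median was -0.06 without Hdac4-knockdown replicate 1 and -0.07 without scramble replicate 3, and from 6 to 8 genes were called higher when single libraries were left out. The RFX complex genes, whose products NLRC5 needs at the promoter, were all called higher, Rfx5 at 0.68 (SE 0.116), Rfxank at 0.30 (SE 0.129, edgeR adjusted p = 0.0438) and Rfxap at 0.21 (SE 0.0676). Rela (0.27) and Nfkb1 (0.24), which encode NF-kB subunits, were called higher as well. The NF-Y genes split, with Nfya called higher (0.21) and Nfyb (-0.26) and Nfyc (-0.54) called lower. Creb1 (-0.27), Atf1 (-0.16) and Irf1 (-0.33), an interferon-responsive activator of these genes, were called lower. Of the Polycomb genes, whose complex is known to repress class I genes, Ezh2 (-0.74) and Suz12 (-0.75) were called lower. Eed, the other Polycomb gene listed, was not called (-0.08). Ciita, the class II transactivator, had 11 counts or fewer in every library and was not tested.

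Interferons themselves were close to absent. Of 9 interferon genes, 5 had no count in any library and none passed the count filter, and Ifnb1 had 2, 1 and 6 counts in scramble and 9, 24 and 6 in Hdac4-knockdown libraries. Among 10 genes for interferon receptors, their kinases and inhibitors, Ifngr2 (0.22) was called higher, and Jak1 (-0.37) and Ifnar1 (-0.28) were called lower. The number called higher was 3 without Hdac4-knockdown replicate 1 and 2 without scramble replicate 1, and the number called lower ranged from 2 to 3. Of 25 interferon-stimulated genes outside the presentation pathway, 18 were called lower, 2 higher (Ifit1, 0.55, and Trim25, 0.29) and 5 were not called. Over all genes tested, 37.1% were called lower and 38.0% higher. The median of the 25 genes was -0.38, and it was -0.23 without Hdac4-knockdown replicate 3. The lowest were the antiviral gene Rsad2 (-1.77, SE 0.136), the virion tether gene Bst2 (-1.70, SE 0.046) and the RNA sensor gene Ifih1 (-1.42, SE 0.0806). Summed over the 25 genes, levels were 2791, 2890 and 3139 CPM in scramble and 2292, 2147 and 1792 CPM in Hdac4-knockdown libraries. Hdac4-knockdown replicate 3 was the lowest of its group for 23 of these 25 genes, for 7 of the 10 presentation genes, and for 28.5% of all genes tested. Without that library the same number of presentation genes was called in each direction, with log2 fold changes of -0.57 for Psmb9, 0.54 for Nlrc5, 0.41 for Tap1, -1.52 for Psmb8 and 1.68 for H2-D1. The part of this library-to-library difference in the results was not tested further.

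**Figure D3:**
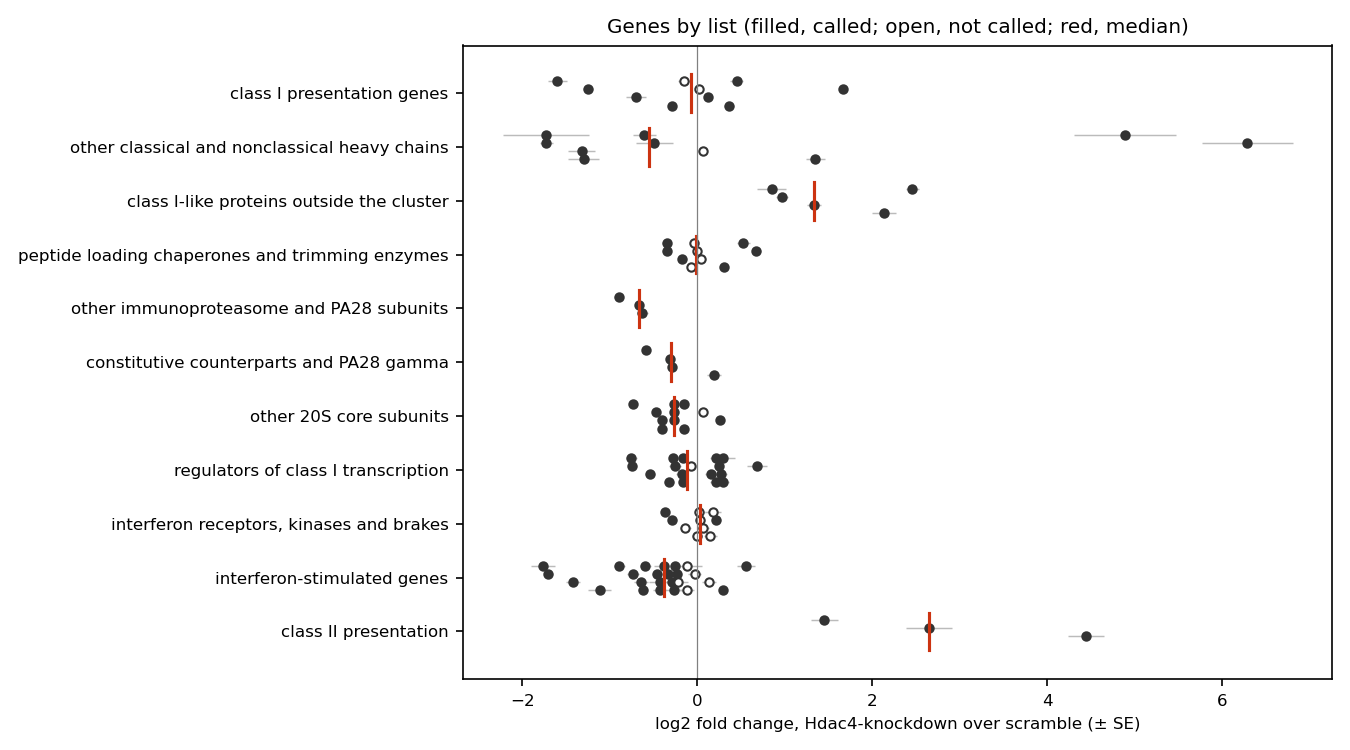
Log2 fold change (horizontal axis, Hdac4-knockdown over scramble, ± SE) of every tested gene of the presentation genes and the related lists. Filled points passed the thresholds, open points did not, and red bars are list medians; the presentation genes lie on both sides of 0 and 18 of 25 interferon-stimulated genes are called lower. The 2 points furthest right among heavy chains (H2-M9 and H2-M2) rest on 4 counts or fewer in each scramble library.

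Other heavy chain genes of the cluster also split. Of 23 listed, 18 were in the count tables and 10 were tested, and of these 6 were called lower, 3 higher and H2-T22 was not called (0.06, SE 0.0513, 95.7 ± 3.83 CPM in scramble and 99.7 ± 6.43 CPM in Hdac4-knockdown libraries, SD, n = 3). H2-Q4 was counted 1620, 1525 and 1551 times in scramble and 518, 555 and 417 times in Hdac4-knockdown libraries. Its decrease (log2 fold change -1.73, SE 0.0726, edgeR adjusted p = 3.00e-14) was the largest among these genes with at least 100 counts on average, followed by H2-T10 (-1.32) and H2-Q1 (-1.30). H2-M3, which presents N-formyl peptides of bacterial and mitochondrial origin, was counted 179, 146 and 147 times in scramble and 381, 471 and 406 times in Hdac4-knockdown libraries, a log2 fold change of 1.35 (SE 0.108, edgeR adjusted p = 9.58e-10). H2-Q and H2-T genes resemble each other, but how much sequence they share was measured only for H2-T23. The counts of the others are uncertain to an extent that was not measured.

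Class I-like genes outside the MHC, which also pair with β2-microglobulin in most cases, were listed as 7. Cd1d2 and Azgp1 had no counts, and the 5 that were tested were all called higher, as were 38.0% of all genes tested. Procr, the endothelial protein C receptor, rose from 7.27 ± 0.348 to 40.0 ± 2.21 CPM (SD, n = 3), a log2 fold change of 2.46 (SE 0.0768). Cd1d1, which presents lipids to NKT cells, rose by 2.13 (SE 0.134), Mr1, which presents vitamin B metabolites to MAIT cells, by 1.33 (SE 0.0776), Fcgrt, the neonatal Fc receptor, by 0.97 (SE 0.07) and Hfe, a regulator of iron uptake, by 0.85 (SE 0.162). Among 10 general chaperones and peptidases of the pathway, 3 were called higher (Blmh 0.68, Tapbpl 0.53 and Calr 0.30), 3 were called lower (Tpp2 -0.35, Erap1 -0.35 and Thop1 -0.17), and 4 were not called. Tapbpl encodes TAPBPR, a peptide editor related to tapasin, and Erap1 trims peptides in the endoplasmic reticulum.

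Of the 10 presentation genes, 8 lie on chromosome 17, between Tapbp and H2-T23, and only B2m (chromosome 2) and Nlrc5 (chromosome 8) lie elsewhere. From 33915899 to 36032855 there are 204 annotated genes, of which 93 were tested. With the 8 presentation genes left out, 23 of the other 85 were called higher and 35 lower, with a median log2 fold change of -0.09. For comparison, 38.0% of all genes tested were called higher and 37.1% lower. Between Tap2 and H2-D1, the longest stretch, 13 of 42 genes were called higher and 18 lower, and between Tapbp and H2-K1 2 of 8 were called higher and 2 lower. Between H2-K1 and Psmb9, 6 of 7 genes were called higher and none lower, among them H2-DMb1. Between H2-D1 and H2-T23, 15 of 28 were called lower and 2 higher, so that H2-D1 stood beside H2-Q1, the next gene tested, with the opposite sign (1.67 and -1.30).

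**Figure D4:**
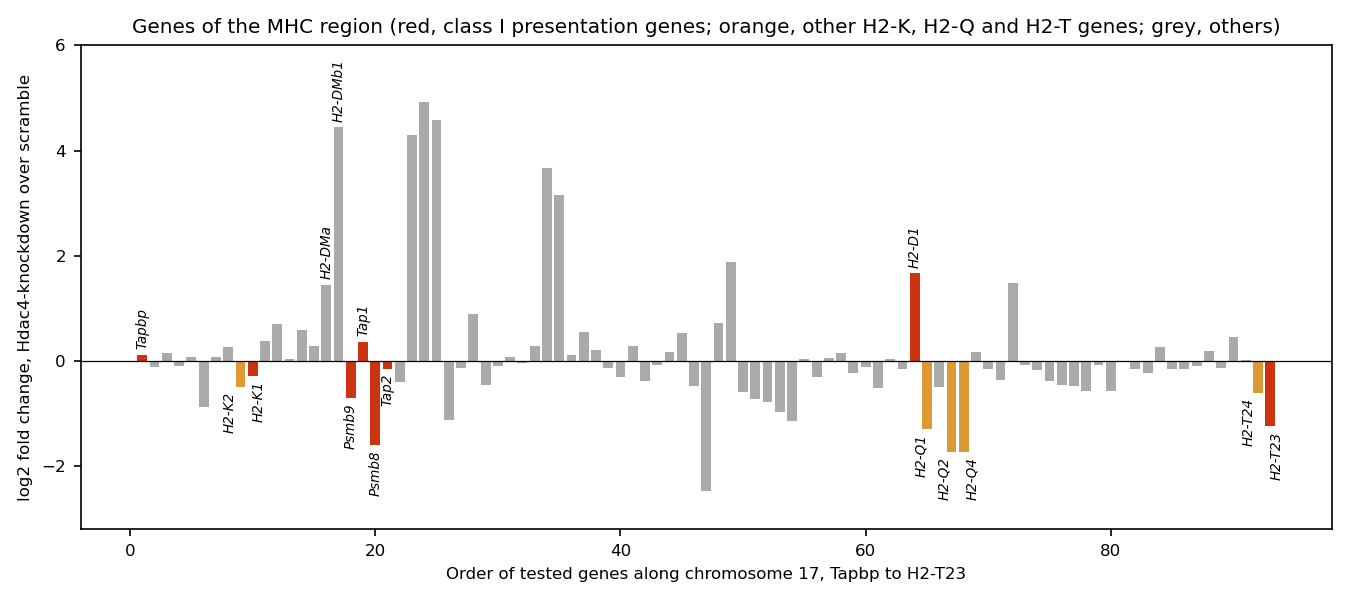
Log2 fold change (vertical axis, Hdac4-knockdown over scramble) of the 93 tested genes from Tapbp to H2-T23 in their order along chromosome 17 (horizontal axis, rank and not distance). Presentation genes are red, other H2-K, H2-Q and H2-T genes orange and other genes grey; Tap1 stands above 0 between Psmb9 and Psmb8 below 0.

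Markers of cell types with high class I levels were examined in the same libraries. Of 12 leukocyte and macrophage markers, Adgre1, Cd3e and Ms4a1 had no counts in any library, Ptprc had at most 9 counts, and 4 were tested. The 12 markers summed to 13.6 to 16.3 CPM in scramble and 18.5 to 21.5 CPM in Hdac4-knockdown libraries. Most of this sum was Cd14, with means of 12.5 CPM in scramble and 14.1 CPM in Hdac4-knockdown libraries, which was not called. Of the 4 tested, 2 were called higher (Lyz2, 4.82, and Csf1r, 2.20) and 0 lower. Lyz2 was counted 5, 1 and 2 times in scramble and 72, 95 and 81 times in Hdac4-knockdown libraries. Csf1r was counted 3, 4 and 6 times in scramble and 19, 23 and 22 times in Hdac4-knockdown libraries. The 4 dendritic cell markers summed to 0.982 to 1.70 CPM and 5.59 to 6.63 CPM, and the 4 endothelial markers to 0.262 to 0.421 CPM and 2.81 to 3.16 CPM, higher in Hdac4-knockdown libraries in both cases. Of the endothelial markers, 1 was tested and called higher (3.45). Of the dendritic cell markers, 2 were tested and called higher. Flt3, not tested, went the other way, with 6, 14 and 6 counts in scramble and 2, 1 and 4 in Hdac4-knockdown libraries. The part of these low levels in the results was not tested. The 9 osteoblast markers listed summed to 4772 to 4785 CPM in scramble and 21449 to 22286 CPM in Hdac4-knockdown libraries, and of 6 tested, 5 were called higher and 1 lower. The rise of the sum lay in the collagen genes Col1a1 and Col1a2. Col1a1 went from 338 ± 14.4 to 11015 ± 326 CPM (SD, n = 3), a log2 fold change of 5.03. Col1a2 went from 1213 ± 22.5 to 8572 ± 163 CPM (SD, n = 3), a log2 fold change of 2.82. Spp1, which encodes osteopontin, was called lower (-0.62), from 3154 to 2046 CPM. The osteoblast transcription factor genes Sp7 (4.18) and Runx2 (0.19) and the matrix protein gene Dmp1 (2.55) were called higher. Their group means were no more than 79.5 CPM. Sp7 had 7 counts or fewer in each scramble library. Of the defining markers, Alpl had 3 counts or fewer, Bglap 12 or fewer and Ibsp 7 or fewer in every library. These differences in osteoblast markers, not all in the same direction, lay between the same groups as those in the presentation genes. The part of one in the other was not tested.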

How the data were processed

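Poly-A selected RNA of 6 MC3T3-E1 libraries was sequenced with an unstranded paired-end Illumina protocol. The authors deposited raw counts per Ensembl gene for each library, without normalization; the submitters' processing notes name STAR 2.7.3a, HTSeq 0.12.4 and the build mm10, and the annotation used for counting is not given in the sources used here. The 5 summary lines of each table were left out, so reads that aligned to several places or overlapped several genes are uncounted.

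Symbols, exons and positions came from GENCODE M21 (GRCm38, the same assembly as mm10), which matched 53706 of 53801 identifiers, and upstream sequences from RefSeq (GRCm38.p6). Counts were tested with edgeR 4.0.16 in R 4.3.3 (filterByExpr, TMM, quasi-likelihood F test, Benjamini-Hochberg adjustment over 14531 genes; SE as the log2 fold change divided by the square root of F). Ratios were log2 of counts plus 0.5, compared by two-sided exact permutation tests. Analyses in Python 3.11.15 used Biopython 1.88 and matplotlib 3.10.9.

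The presentation genes and all lists were chosen with earlier results of these data known. Named were all 10 genes, Hdac4, the constitutive proteasome counterparts and a selection from each list. The rule for lists was up to 3 called genes in each direction with the largest changes and at least 100 counts on average. Irf2 (log2 fold change 0.30), Psme3 (-0.31), Psma3 (-0.47) and Psmb2 (-0.40) met that rule and are given only here. Interferon genes, untested genes, markers, and the other regulators, subunits and heavy chains named were added after their values were seen. Of the list symbols, 5 heavy chains had no row with that symbol and were not analysed here. Alternatives were other normalizations, filters and tests, a replicate block, other fold change thresholds and leaving out each library.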

Additional observations from a re-analysis of the deposited data

Results flagged for a closer look

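Reads outside annotated genes, which enter none of the comparisons, took a larger part of the Hdac4-knockdown libraries. They made up 3.41%, 3.17% and 3.25% of reads in scramble and 5.07%, 4.64% and 4.66% in Hdac4-knockdown libraries, so that the lowest Hdac4-knockdown library (4.64%) was above every scramble library. No test for single outlying values was run on groups of 3 libraries. Each library was left out in turn, and the low interferon-stimulated genes of Hdac4-knockdown replicate 3 are described above.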

How the results depend on the processing

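H2-K1, H2-D1, H2-T23, Tap1, Psmb8, Psmb9, Nlrc5 and Hdac4 kept their direction and their call under all 14 alternatives of normalization, filter, test, block and omitted library. B2m was called with upper quartile normalization (0.104, adjusted p = 0.0178), turned to -0.014 without a count filter, and ranged from -0.0052 to 0.048 when single libraries were left out. Tap2 was called without a count filter (-0.18), with limma-voom (-0.1531) and with the replicate block (-0.1532), and ranged from -0.1965 to -0.093 when single libraries were left out, with a call only without Hdac4-knockdown replicate 2. Tapbp was not called without a count filter (0.0899, adjusted p = 0.11) or with DESeq2 (0.106, adjusted p = 0.0535) and ranged from 0.0755 to 0.149 when single libraries were left out. The log2 ratio of Psmb9 to Psmb6 ranged from -0.315 to 0.00396, above 0 only without Hdac4-knockdown replicate 3. The median of the 10 genes turned to 0.0207 with upper quartile normalization, which moved the median of all genes by 0.089. The cause of these shifts was not tested.

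Fold change thresholds of 0.5 and 1 left 3579 and 2397 genes called higher and 2879 and 1543 called lower, and among the presentation genes 1 higher at both thresholds and 2 lower at the threshold of 1. Without any library the call counts of all genes stayed within 1.5 times. With the replicate block, 5523 genes were called higher and 5441 lower, and Tap2 was the added presentation gene (-0.1532). Same-numbered libraries did not deviate together (correlations across genes of -0.0052, 0.096 and 0.021), not every library correlated best with its own number, and the labels do not pair the groups. Psmb8 and Psmb9 had the fewest counts of the 10 genes, 126 to 449 per library, and the largest SEs (0.108 and 0.114), and how much of these is counting error was not tested.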

Other observations

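The class II presentation pathway, which displays peptides from endosomes and is mostly a property of professional antigen-presenting cells, was nearly silent in both groups in its surface chains. H2-Aa, H2-Ab1 and H2-Eb1 had 5 counts or fewer in every library, and H2-Oa and H2-Ob had none. Its loading genes were counted more often. H2-DMb1, a subunit of the peptide exchange factor H2-M, was counted 46, 17 and 14 times in scramble and 526, 673 and 561 times in Hdac4-knockdown libraries, a log2 fold change of 4.44 (SE 0.201, edgeR adjusted p = 1.00e-13). H2-DMa, the other subunit, was counted 86, 65 and 61 times in scramble and 173, 221 and 214 times in Hdac4-knockdown libraries (log2 fold change 1.45, SE 0.158, edgeR adjusted p = 8.32e-08). Cd74, the invariant chain, was counted 19, 16 and 13 times in scramble and 105, 135 and 78 times in Hdac4-knockdown libraries (log2 fold change 2.65, SE 0.263, edgeR adjusted p = 2.29e-08). All 3 stayed low beside H2-K1 and H2-D1, with no more than 673 counts in any library.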
